A study of Mus musculus with 24 samples.

Results

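Presynaptic vesicle and active zone genes were followed across 24 bulk RNA-seq libraries of neurons sorted by fluorescence from adult mouse cortex. The 37 members were taken by name: SNAREs and the proteins that take SNARE complexes apart, complexins, priming factors, active zone scaffolds and vesicle membrane or vesicle-bound proteins, with synaptotagmins left out. They were found through their NCBI Gene numbers, and all 37 of them were among the 36528 genes listed per library. The libraries fall into 4 subtypes of 6 each, which the labels call PV, SST, VIP and EXC without spelling the names out. The sort kept DAPI-negative cells that carried a GFP or tdTomato signal, and the labels name neither the transgenic reporter lines and their promoters nor the number of animals. Every subtype therefore carries a reporter, and no unsorted or reporter-free library is among them. PV has 3 female and 3 male libraries, SST 2 and 4, VIP 4 and 2, and EXC 2 and 4. Whether the 6 libraries of a subtype stem from different animals is not in the labels, and the p-values below therefore cover the spread among these libraries only, which may be technical.

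A synaptic vesicle fuses when the vesicle SNARE synaptobrevin zips up with syntaxin and SNAP-25 on the plasma membrane. Priming factors prepare the SNAREs for this step, complexins hold and then release the partly zipped complex, and NSF with its SNAP adaptors pulls spent complexes apart. Scaffolds of the active zone, among them RIM, ELKS, Bassoon and Piccolo, keep vesicles and calcium channels close together, while synapsins, SV2 proteins, synaptophysins and Rab3 GTPases sit on the vesicle itself. Cortical excitatory neurons and the PV, SST and VIP classes of interneuron are known to release transmitter with different speed and short-term plasticity, and most of the families above have paralogs encoded by separate genes.

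Total read counts per library ran from 1548907 to 15978459, and the 6 PV libraries held 1548907 to 4653119. In PV, 14.4 to 52.9% of reads lay on mitochondrially encoded genes, against 1.80 to 16.6% in the other subtypes; leaving those genes out of the totals changed no call of a member. The subtype markers sat where the labels put them. Pvalb ranged from 178 to 232 CPM (read counts scaled to the normalised library size) in PV and reached at most 5.39 elsewhere. Sst ranged from 701 to 1422 CPM in SST. It reached 133 CPM in PV (median 41.1), 72.9 in EXC (median 17.0) and 17.7 in VIP (median 2.73). Vip ranged from 1634 to 1776 CPM in VIP with at most 5.29 elsewhere, and Slc17a7, the vesicular glutamate transporter of cortical excitatory neurons, from 162 to 820.5 CPM in EXC with at most 60.4 elsewhere. Markers of further cell types also differed among the libraries, in part along the subtypes. The 7 ciliated ependymal markers summed to 48.1 to 195 CPM in PV and at most 2.89 elsewhere, the 5 dentate granule markers to 277 to 613 CPM in EXC and at most 8.59 elsewhere, and the 7 oligodendrocyte markers to 79.9 to 2943 CPM in EXC and at most 723 elsewhere. The 7 astrocyte markers summed to 171 to 689 CPM in PV, 223 to 321 in SST, 1088 to 1533 in VIP and 499 to 4121 in EXC, and most of each sum was Slc1a2, with 1079.9 to 1508 CPM in VIP. Some other astrocyte markers did not follow it: Aqp4 had a median of 34.0 CPM in PV, 2.53 in SST, 1.97 in VIP and 6.30 in EXC, and the medians of Gfap, Slc1a3 and Gja1 were also lower in VIP than in PV. Aldh1l1 went the other way, with a median of 1.67 CPM in VIP and 1.09 in PV. The part of these further cell types in the results below was not tested.

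Pools named in the labels follow the subtypes closely. POOL6188 holds all 6 PV and 5 EXC libraries, POOL7098 holds 5 SST libraries and VIP replicates 1 and 3, POOL7099 holds 4 VIP libraries and EXC replicate 3, and POOL7100 holds SST replicate 5. PV shares no pool with SST or VIP, so subtype and pool cannot be told apart there, and PV against EXC and SST against VIP are the comparisons with a within-pool value that rests on more than 1 library per subtype. EXC replicate 3 stood apart: it was the lowest EXC library for 26 of the 37 members and the highest for 6, namely Rims1, Rims2, Rimbp2, Erc2, Ppfia2 and Synpr. It also had the lowest sum of excitatory markers, 1881 CPM against 4038 to 5449 in the other EXC libraries, and the highest sum of pan-GABAergic markers, 884 CPM against 317 to 643. That library also set the low end of EXC for Slc17a7 and for the dentate granule, oligodendrocyte and astrocyte sums. Without it these sums began at 440, 288 and 1033 CPM in EXC. Replicate numbers within a subtype follow the order of deposit and are not from the labels. Where 1 library alone moves the end of a member's range by more than 1.5 times, that library is named beside the gene or in the account of such ends below.

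All 37 members passed the filter on low counts and were tested with 14890 genes in all, by edgeR's quasi-likelihood test with Benjamini-Hochberg adjustment over those genes. Fold changes are log2, written with their standard error (SE), and a member is called higher or lower at an adjusted p under 0.05. The members are abundant genes: the median of their mean levels was 227 CPM, against 14.3 CPM over all genes tested, and 34 of the 37 lay above the median of all genes. A test has more reads to work with in such genes, and the part this plays in the counts of calls was not tested. In bulk libraries, fewer cells of a type and less RNA per cell cannot be told apart.

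Summed over the 37 genes, presynaptic transcripts came to 21668 to 25729 CPM in PV, 20257 to 28060 in SST, 14486 to 18478 in VIP and 13147 to 22807 in EXC. These sums are on the normalised scale and are not shares of all reads. EXC replicate 3 was the low end of EXC, and without it EXC began at 18009 CPM. VIP lay below every PV and SST library. Snap25 alone was 34.7 to 40.3% of this sum in PV, 28.5 to 33.0% in SST, 16.2 to 20.8% in VIP and 22.3 to 31.5% in EXC. The highest subtype mean fell in PV for 9 members, in SST for 9, in VIP for 4 and in EXC for 15, and the lowest mean in PV for 12, in SST for none, in VIP for 16 and in EXC for 9.

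**Figure D1:**
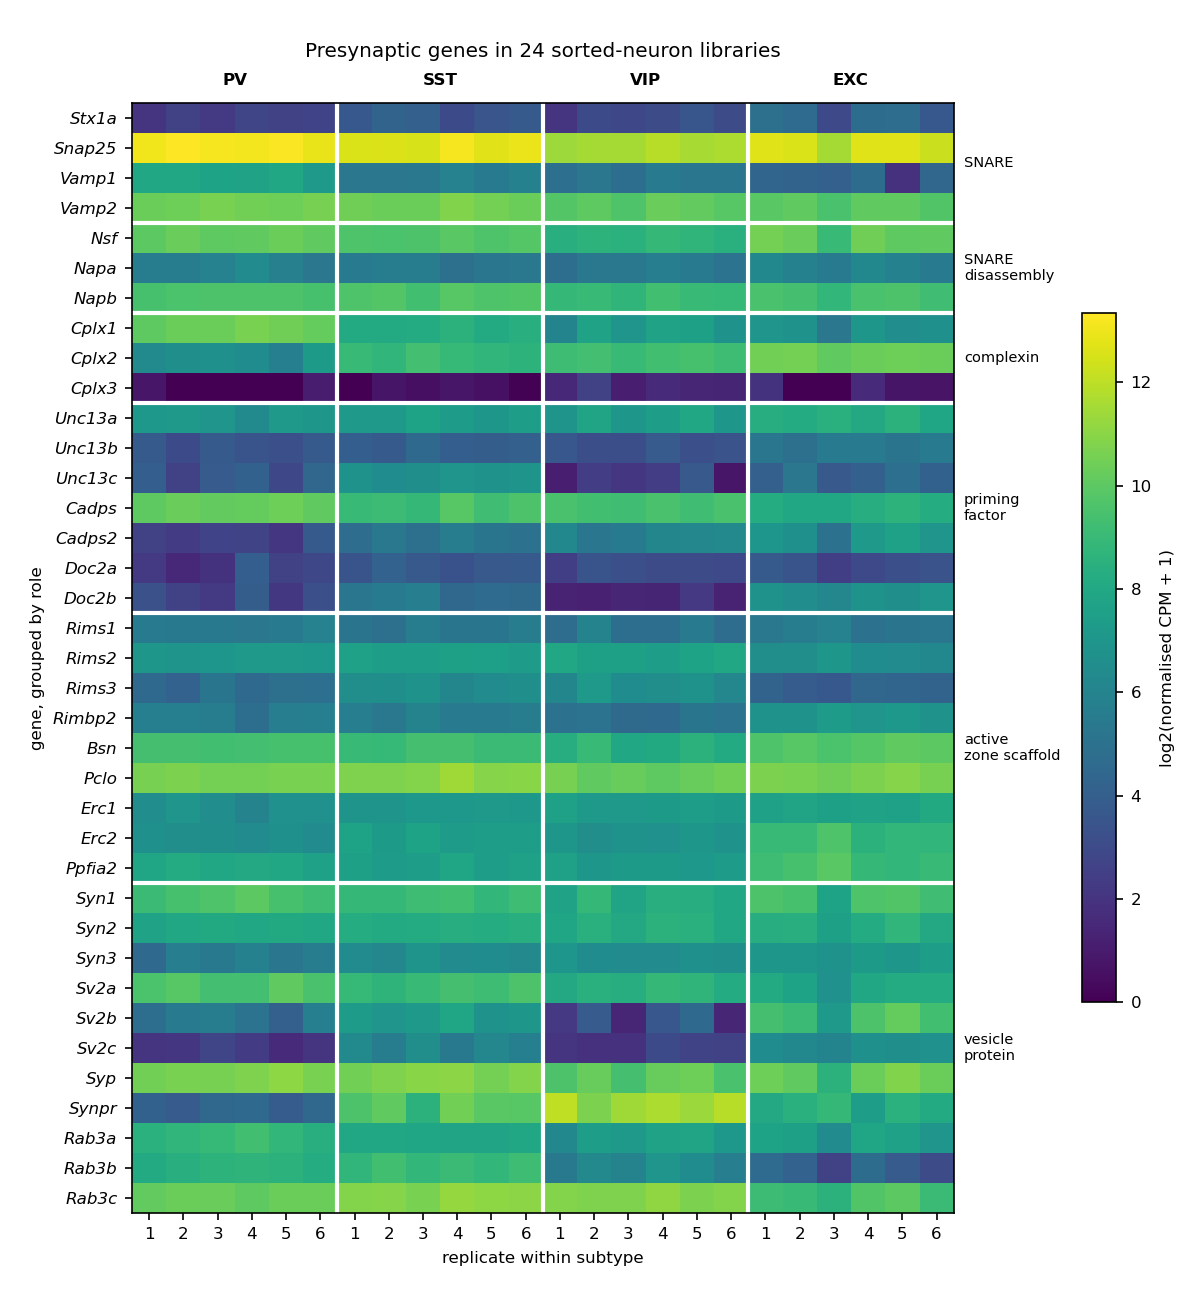
Level of the 37 genes (rows, grouped by role) in each of the 24 libraries (columns, replicates 1 to 6 of PV, SST, VIP and EXC), as log2 of normalised CPM plus 1. Snap25 is the brightest row in PV, SST and EXC, Cplx1 and Vamp1 stand out in PV, Unc13c in SST, Synpr in VIP, and Cplx2, Sv2b and Doc2b in EXC; Cplx3 is near 0 throughout.

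An overall test of the subtype terms called 34 of the 37 members, where it called 68.5% of all genes tested. Those not called were Doc2a (adjusted p = 0.0526), Rims1 (0.481) and Syn2 (0.216). Between PV and EXC, 26 members were called, against 45.9% of all genes: 11 were higher in PV (20.3% of all genes) and 15 lower (25.6%). The median size of the fold change was 1.31 over the members and 0.70 over all genes. Between SST and VIP, 22 members were called, against 31.3% of all genes: 19 were higher in SST (14.6% of all genes) and 3 lower (16.7%). The median size of the fold change was 0.70 over the members and 0.48 over all genes. These 2 comparisons share no library, and the accounts of the single genes below are built on them.

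Of the 4 SNAREs, Vamp1, Vamp2 and Snap25 were higher in PV than in EXC and Stx1a was lower (20.3% and 25.6% of all genes). Vamp1 encodes synaptobrevin-1, a vesicle SNARE. It ranged from 141 to 255 CPM (median 229.6) in PV, 38.1 to 59.1 (40.8) in SST, 27.6 to 43.8 (36.5) in VIP and 2.78 to 24.8 (18.7) in EXC. All PV libraries lay above all others and all EXC libraries below all others, with log2 fold changes of 3.68 ± 0.30 (adjusted p = 1.22e-10) for PV against EXC and 1.42 ± 0.28 (adjusted p = 1.89e-04) for SST against EXC. Its paralog Vamp2, synaptobrevin-2, ranged from 1305 to 1584 CPM (median 1379) in PV, 1270.3 to 1789 (1357) in SST, 821 to 1247 (984) in VIP and 711 to 1084 (1021) in EXC. PV and SST lay above every VIP and EXC library, and the differences were small: 0.54 ± 0.13 (adjusted p = 0.00152) for PV against EXC and 0.55 ± 0.14 (adjusted p = 0.00288) for SST against VIP. Shares of a family, here and below, are shares among its members in the list of 37 only. Per gene length, on the authors' RPKM scale, Vamp2 held most of the Vamp1 and Vamp2 sum in every library. The Vamp1 share of the summed RPKM of both genes was 5.89 to 11.8% in PV, 1.84 to 2.96% in SST, 2.18 to 2.60% in VIP and 0.176 to 1.63% in EXC. The low end of EXC was replicate 5 alone, with 21 Vamp1 reads, and the next EXC library had 1.13% and 16.1 CPM. Between SST and VIP, Vamp1 was not called over all libraries (0.43 ± 0.27) but was called within POOL7098 (0.81 ± 0.21). The VIP libraries of that pool, replicates 1 and 3, were the lowest of VIP in Vamp1, with 28.6 and 27.6 CPM.

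Snap25 encodes the plasma membrane SNARE SNAP-25. It ranged from 7561 to 10285 CPM (median 8953) in PV, 5777 to 9148 (6499.7) in SST, 2685 to 3835 (3006) in VIP and 2933 to 6669.9 (6244) in EXC. VIP lay below all PV and SST libraries, and PV above all EXC libraries. The low end of EXC was replicate 3, and the other 5 began at 4850.0 CPM. PV against EXC gave 0.66 ± 0.16 (adjusted p = 0.00167) and SST against VIP 1.22 ± 0.17 (adjusted p = 2.77e-06). Stx1a, which encodes syntaxin-1A, was scarce by comparison on the RPKM scale, with 1.09 ± 0.259 RPKM in PV and 4.72 ± 1.99 in EXC where Snap25 had 2310.2 ± 204 and 1449 ± 335 (SD, n = 6 each). In CPM it ranged from 2.99 to 5.92 CPM (median 5.20) in PV, 7.09 to 18.1 (12.1) in SST, 3.11 to 10.7 (7.02) in VIP and 6.56 to 29.2 (25.01) in EXC. The low end of EXC was replicate 3, without which EXC began at 11.9 CPM, and that of VIP was replicate 1, with the next at 6.40. No PV library reached the lowest EXC or SST library, with -2.10 ± 0.35 (adjusted p = 2.17e-05) for PV against EXC. Its difference between SST and VIP, 0.88 ± 0.33 (adjusted p = 0.0440), was lost in 17 of the alternative settings.

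Nsf, the ATPase that disassembles SNARE complexes, ranged from 996 to 1298 CPM (median 1069.8) in PV, 747 to 953 (802) in SST, 322 to 465 (375) in VIP and 513 to 1498 (1142) in EXC. VIP lay below every library of the other subtypes. EXC began at 1034 CPM without replicate 3. SST against VIP gave 1.16 ± 0.17 (adjusted p = 7.35e-06), while PV and EXC overlapped, and PV against EXC gave -0.017 ± 0.16 without passing the test. Napb, the beta-SNAP adaptor found mainly in brain, ranged from 690.0 to 792 CPM (median 756) in PV, 633 to 922 (823) in SST, 417 to 637 (497) in VIP and 454 to 767 (690.0) in EXC, and SST against VIP gave 0.71 ± 0.13 (adjusted p = 1.88e-04). Napa, the alpha-SNAP adaptor, ranged from 37.6 to 85.4 CPM (median 52.2) in PV, 29.0 to 47.4 (41.2) in SST, 27.0 to 51.7 (39.3) in VIP and 43.9 to 74.2 (56.5) in EXC, with overlap among all subtypes and no call in PV against EXC or SST against VIP. Napb held 85.7 to 92.5% of the RPKM of the Napa and Napb pair in PV, 90.0 to 95.5% in SST, 87.8 to 92.2% in VIP and 86.7 to 90.2% in EXC. Of these 3 genes, 0 were called between PV and EXC (45.9% of all genes), and 2 were called higher in SST than in VIP (14.6% of all genes).

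The complexins split between paralogs: PV was higher than EXC in Cplx1 and lower in Cplx2. Cplx1 ranged from 1047 to 1587 CPM (median 1302) in PV, 281 to 382 (287) in SST, 63.5 to 204 (155) in VIP and 38.3 to 131 (107) in EXC. Every PV library lay above every library of the other subtypes, and SST lay above VIP and EXC. The low end of EXC was replicate 3, without which EXC began at 91.4 CPM, and that of VIP was replicate 1, with the next at 116. The fold change was 3.68 ± 0.26 (adjusted p = 7.13e-12) for PV against EXC and, for SST against VIP, 1.13 ± 0.24 (adjusted p = 7.35e-04). Cplx2 ran the other way and ranged from 52.2 to 152 CPM (median 93.1) in PV, 398 to 655 (461) in SST, 517 to 688 (606) in VIP and 1089 to 1486 (1324) in EXC. EXC lay above all other libraries and PV below all of them, while SST and VIP overlapped. PV against EXC gave -3.81 ± 0.19 (adjusted p = 2.50e-14), and SST against VIP gave -0.31 ± 0.18 without passing the test. Against the other interneurons, PV was higher in Cplx1 by 2.04 ± 0.24 (SST) and 3.18 ± 0.25 (VIP), and lower in Cplx2 with fold changes of -2.37 ± 0.18 (SST) and -2.68 ± 0.19 (VIP). With pool as a covariate, a fit whose link between POOL6188 and the other pools rests on EXC replicate 3, Cplx1 in PV against SST turned to -0.35 (adjusted p = 0.595).

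Per gene length, Cplx1 made up 94.4 to 98.3% of the summed RPKM of Cplx1, Cplx2 and Cplx3 in PV, 50.0 to 65.6% in SST, 19.5 to 41.9% in VIP and 7.32 to 18.3% in EXC. No range overlapped another. The low ends of VIP and EXC were again those 2 libraries, and the next ones had 31.0% in VIP and 13.3% in EXC. Cplx2 held nearly all of the rest. Cplx3, known best from the ribbon synapses of the retina, had 2 reads over the 6 PV libraries, 31 over SST, 82 over VIP and 53 over EXC, or 0.142 CPM (95% exact Poisson interval 0.0172 to 0.513) in PV, 0.395 (0.268 to 0.561) in SST, 2.08 (1.65 to 2.58) in VIP and 1.23 (0.924 to 1.61) in EXC, intervals that cover counting error only. Its call between SST and VIP was lost in 17 of the alternative settings, and its direction is not read here.

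**Figure D2:**
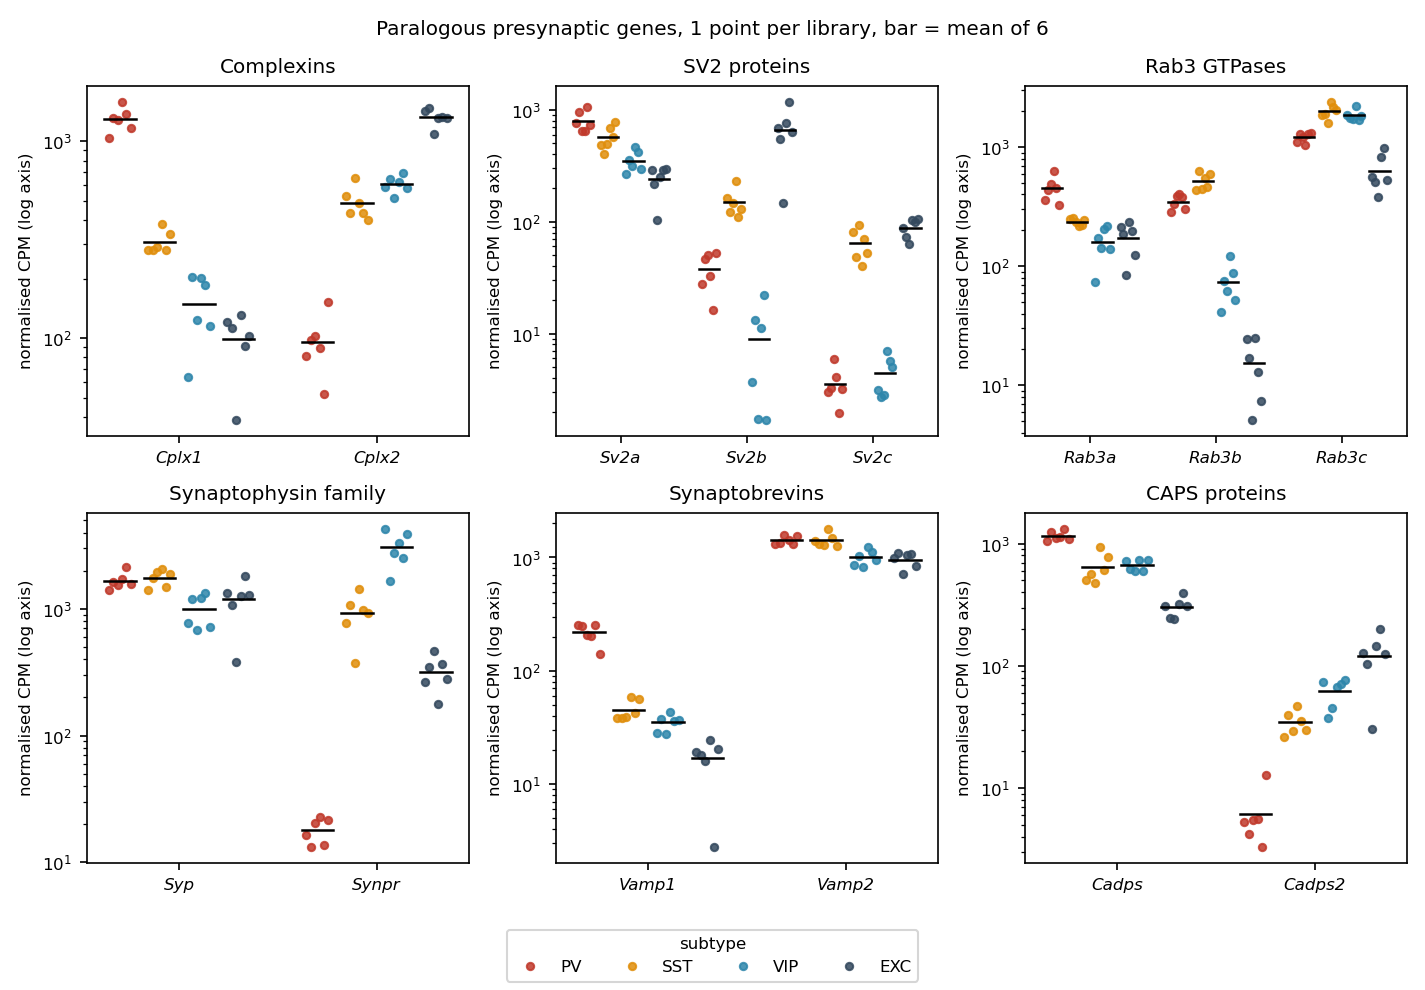
Normalised CPM (log axis) of paralogs in 6 families, 1 point per library, with a bar at the mean of the 6 libraries of PV, SST, VIP and EXC. In the complexin panel PV is the top group for Cplx1 and the bottom group for Cplx2, with EXC the reverse for Cplx2. The subtype means of Cplx1, Cplx2, Sv2b, Sv2c, Rab3b, Synpr, Vamp1 and Cadps2 spread over more than a factor of 10.

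Upstream sequence is shown for 1 gene each that was high in PV (Cplx1), in PV and SST (Rab3b), in SST and EXC (Sv2c) and in VIP (Synpr), so that their starts can be read side by side. The 250 bases before the RefSeq transcription start (build GRCm38.p6) were available for 31 of the 37 members; Snap25, Vamp2, Doc2a, Doc2b, Rims2 and Syn3 are named only. Each sequence reads 5′ to 3′ on the strand of the gene, and capitals mark matches to short motifs on either strand, here the GC box GGGCGG and the TATA box TATAAA; matches that overlap run together. Cplx1 lies on the minus strand with its window at chr5:108550028-108550277, Rab3b on the plus strand at chr4:108878820-108879069, Sv2c on the minus strand at chr13:96132578-96132827 and Synpr on the plus strand at chr14:13284530-13284779, 1 of 2 starts listed for that gene.
Cplx1: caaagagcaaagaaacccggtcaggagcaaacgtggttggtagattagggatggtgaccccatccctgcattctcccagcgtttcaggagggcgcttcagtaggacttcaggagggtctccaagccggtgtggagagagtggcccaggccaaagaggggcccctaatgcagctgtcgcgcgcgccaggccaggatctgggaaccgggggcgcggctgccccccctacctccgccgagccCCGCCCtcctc
Rab3b: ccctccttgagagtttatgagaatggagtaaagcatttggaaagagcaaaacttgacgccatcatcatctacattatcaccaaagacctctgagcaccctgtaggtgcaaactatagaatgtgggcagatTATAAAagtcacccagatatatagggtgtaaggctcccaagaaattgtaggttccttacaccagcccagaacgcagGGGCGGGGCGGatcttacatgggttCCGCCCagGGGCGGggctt
Sv2c: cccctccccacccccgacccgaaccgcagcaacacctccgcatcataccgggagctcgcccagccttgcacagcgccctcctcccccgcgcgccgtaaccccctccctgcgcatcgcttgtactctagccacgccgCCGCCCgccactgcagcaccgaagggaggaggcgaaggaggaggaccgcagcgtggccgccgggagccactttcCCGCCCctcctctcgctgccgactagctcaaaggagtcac
Synpr: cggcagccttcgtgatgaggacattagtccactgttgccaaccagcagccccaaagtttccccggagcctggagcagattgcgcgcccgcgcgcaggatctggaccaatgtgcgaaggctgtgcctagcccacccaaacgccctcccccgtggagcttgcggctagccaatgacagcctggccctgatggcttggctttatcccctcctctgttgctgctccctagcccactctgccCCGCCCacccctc
Rab3b is the only one of the 4 with a TATA box letter match, and its window has 6 CpG dinucleotides, where those of Cplx1, Sv2c and Synpr have 15, 26 and 13. The GC box letters occur in 21 of the 31 member windows (67.7%) and in 32.9% of the 27025 windows of all genes. TATAAA occurs in 2 member windows (6.45%), those of Rab3b and Sv2b, against 12.97% of all windows. The median number of CpG dinucleotides was 15 over the members and 6 over all genes. The cAMP response element TGACGTCA occurs in 1 member window (3.23%), that of Syn1, against 1.62% of all windows, and CAGATG, an E-box, in 3 (9.68%) against 14.48%. Of the letters that make up the RE1 element of neuronal genes, TTCAGCACC occurs in 1 member window, again that of Syn1, against 0.285% of all windows, and GGACAGCGC in 0, against 0.326%. A match is a description of the letters only, and no match says only that the letters are not in this window.

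Of the 7 priming factors, PV was higher than EXC in 1 (Cadps) and lower in 4 (Unc13a, Unc13b, Cadps2 and Doc2b). Of all genes, 20.3% were higher and 25.6% lower. Unc13a, which encodes Munc13-1, the main priming factor of cortical synapses, ranged from 81.0 to 149 CPM (median 134) in PV, 131 to 215 (153) in SST, 120.2 to 251 (151) in VIP and 236 to 381 (299.6) in EXC. EXC overlapped VIP and lay above PV and SST, with -1.25 ± 0.19 (adjusted p = 5.66e-06) for PV against EXC. Unc13b, Munc13-2, ranged from 7.03 to 12.9 CPM (median 11.3) in PV, 12.7 to 22.3 (14.8) in SST, 8.22 to 12.9 (9.12) in VIP and 29.8 to 45.5 (40.0) in EXC. Here all EXC libraries lay above all others, with -1.89 ± 0.21 (adjusted p = 3.21e-08) for PV against EXC. SST against VIP gave 0.67 ± 0.20 (adjusted p = 0.0112), a call lost with pool as a covariate. Unc13c, Munc13-3, known from the cerebellum, ranged from 5.15 to 20.4 CPM (median 14.2) in PV, 89.3 to 122 (111) in SST, 0.719 to 12.3 (3.82) in VIP and 12.1 to 37.5 (16.5) in EXC. Every SST library lay above all libraries of the other subtypes. SST against VIP gave 4.65 ± 0.45 (adjusted p = 8.94e-09), SST against EXC 2.37 ± 0.40 (adjusted p = 3.07e-05) and PV against SST -3.15 ± 0.44 (adjusted p = 3.40e-06). On the RPKM scale Unc13a still led the family in each subtype, and the Unc13c share was 2.67 to 13.3% in PV, 26.1 to 38.5% in SST, 0.420 to 3.78% in VIP and 2.48 to 8.97% in EXC. The high end of VIP was replicate 5 and that of EXC replicate 2, with the next at 1.98% in VIP and 5.32% in EXC; the low ends were VIP replicate 6 and EXC replicate 3, with the next at 0.736% in VIP and 3.77% in EXC.

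Cadps and Cadps2 encode CAPS-1 and CAPS-2, which prime vesicles, dense-core vesicles above all. Cadps ranged from 1057 to 1321 CPM (median 1129.7) in PV, 473 to 938 (582) in SST, 596 to 732 (673) in VIP and 242 to 393 (307) in EXC. PV lay above all other libraries and EXC below all others, with 1.91 ± 0.16 (adjusted p = 1.35e-10) for PV against EXC, and SST and VIP overlapped with -0.022 ± 0.15, which did not pass the test. Cadps2 ranged from 3.28 to 12.9 CPM (median 5.34) in PV, 26.0 to 47.1 (32.8) in SST, 37.2 to 76.3 (69.4) in VIP and 30.7 to 199 (125) in EXC. PV lay below all others, with -4.47 ± 0.37 (adjusted p = 2.05e-10) for PV against EXC. EXC replicate 3 had the 30.7 CPM at the low end of EXC, and the other 5 EXC libraries began at 103. SST was lower than VIP with -0.85 ± 0.29 (adjusted p = 0.0303), a call lost in 7 of the alternative settings.

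Doc2a and Doc2b encode calcium-binding proteins with a pair of C2 domains, linked to spontaneous and asynchronous release. Doc2b ranged from 3.495 to 14.4 CPM (median 6.87) in PV, 21.0 to 50.9 (30.6) in SST, 1.37 to 3.68 (1.59) in VIP and 72.1 to 123 (103) in EXC. EXC lay above all others and SST above PV and VIP. The fold change was -3.80 ± 0.28 (adjusted p = 1.87e-11) for PV against EXC and, for SST against VIP, 3.91 ± 0.29 (adjusted p = 4.57e-11). Doc2a was low everywhere, from 1.87 to 14.8 CPM (median 4.49) in PV, 9.43 to 17.0 (12.1) in SST, 4.47 to 9.99 (7.33) in VIP and 4.65 to 12.7 (9.09) in EXC, with overlap among all subtypes. PV against SST gave -1.04 ± 0.36 (adjusted p = 0.0307), and neither PV against EXC nor SST against VIP (0.75 ± 0.35) passed the test. Within POOL7098, SST against VIP was called (0.96 ± 0.34, adjusted p = 0.0377). Doc2a shares 39.4% of its exonic bases with Ino80e on the other strand, and no source used here says whether counting used strand, so its reads cannot be told apart from those of Ino80e.

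Active zone scaffolds had calls both ways in PV against EXC. PV was higher than EXC in 2 of the 9 (Rims2 and Rims3) and lower in 5 (Rimbp2, Bsn, Erc1, Erc2 and Ppfia2), where 20.3% and 25.6% of all genes were. SST was higher than VIP in 4 (Rimbp2, Bsn, Pclo and Erc2) and lower in none, where 14.6% and 16.7% of all genes were. Erc2 encodes ELKS2, also called CAST. It ranged from 83.7 to 102 CPM (median 95.9) in PV, 155 to 211 (173) in SST, 93.4 to 133 (112) in VIP and 381 to 810.1 (477) in EXC. EXC lay above all others, and its highest library was replicate 3, without which EXC ended at 519.6 CPM. PV against EXC gave -2.43 ± 0.16 (adjusted p = 1.88e-12) and SST against VIP 0.62 ± 0.15 (adjusted p = 0.00283). Erc1, the more widely expressed ELKS gene, ranged from 60.3 to 123 CPM (median 99.5) in PV, 119 to 139 (137) in SST, 143 to 198 (152) in VIP and 192 to 273 (199) in EXC. VIP and EXC lay above PV and SST, with -1.14 ± 0.15 (adjusted p = 4.69e-07) for PV against EXC; 11.8% of its exonic bases lie opposite an antisense transcript. Ppfia2, liprin-alpha-2, an organiser of presynaptic assembly, ranged from 194 to 289.6 CPM (median 249.99) in PV, 159 to 232 (185) in SST, 131 to 199 (149.97) in VIP and 456 to 959 (538) in EXC. Again EXC lay above all others and ended at 705 CPM without replicate 3. With all libraries, the fold change was -1.31 ± 0.17 (adjusted p = 3.81e-07) for PV against EXC. The Ppfia2 exons overlap those of Acss3 over 22.3% of their bases, but Acss3 had only 45 reads over all 24 libraries, where Ppfia2 had 49735. Rimbp2, which ties RIM to calcium channels, ranged from 27.4 to 53.7 CPM (median 51.4) in PV, 39.2 to 60.3 (44.3) in SST, 22.4 to 34.8 (31.3) in VIP and 108 to 156 (119) in EXC. EXC lay above all others and VIP below SST and EXC, with -1.38 ± 0.17 (adjusted p = 2.49e-07) for PV against EXC and 0.66 ± 0.17 (adjusted p = 0.00413) for SST against VIP.

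Rims2 and Rims3 were higher in SST and VIP than in EXC, while Rims1 was not called. Rims1, the founding RIM, ranged from 38.5 to 60.1 CPM (median 42.2) in PV, 29.2 to 48.4 (35.2) in SST, 26.4 to 60.5 (26.9) in VIP and 30.6 to 59.0 (37.8) in EXC, with overlap among all subtypes and no call in any of the 6 pairs. Rims2 ranged from 120.0 to 146 CPM (median 135) in PV, 164 to 198 (182) in SST, 178 to 257 (201) in VIP and 72.5 to 132 (90.2) in EXC. SST and VIP lay above PV and EXC, and SST against EXC gave 0.94 ± 0.13 (adjusted p = 2.95e-06). The high end of EXC was replicate 3, and the other 5 ended at 94.6 CPM. Rims3, a short RIM that lacks the Rab3-binding and calcium channel-binding parts, ranged from 17.3 to 35.7 CPM (median 25.2) in PV, 69.2 to 111 (95.8) in SST, 67.6 to 149 (91.8) in VIP and 11.8 to 19.8 (17.97) in EXC. SST and VIP again lay above PV and EXC without overlap, with 2.46 ± 0.20 (adjusted p = 2.81e-10) for SST against EXC and -1.87 ± 0.21 (adjusted p = 1.03e-07) for PV against SST. The smaller difference between PV and EXC, 0.59 ± 0.21 (adjusted p = 0.0216), was lost in 4 of the alternative settings, the within-pool fit among them. On the RPKM scale Rims3 held 7.19 to 13.4% of the sum of Rims1, Rims2 and Rims3 in PV, 21.5 to 31.0% in SST, 20.2 to 31.1% in VIP and 3.85 to 10.7% in EXC. That sum leaves out Rims4, which is not a member and, as described below, was highest in PV.

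Bsn and Pclo encode the giant scaffolds Bassoon and Piccolo. Bsn ranged from 620.0 to 701 CPM (median 669) in PV, 491 to 671 (537) in SST, 248 to 501 (297) in VIP and 739.6 to 1072 (925) in EXC. EXC lay above all others, with -0.46 ± 0.15 (adjusted p = 0.0152) for PV against EXC and 0.78 ± 0.15 (adjusted p = 3.39e-04) for SST against VIP. Pclo ranged from 1483 to 1668 CPM (median 1569) in PV, 1726 to 2784 (1901) in SST, 1027 to 1536 (1200.2) in VIP and 1384 to 1947 (1633) in EXC. SST lay above PV and VIP, PV and EXC overlapped, and SST against VIP gave 0.70 ± 0.14 (adjusted p = 2.72e-04). Bsn held 34.1 to 36.8% of the RPKM of this pair in PV, 23.9 to 32.0% in SST, 20.8 to 38.2% in VIP and 38.5 to 45.8% in EXC.

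Of the 11 vesicle proteins, PV was higher than EXC in 4 (Sv2a, Rab3a, Rab3b and Rab3c) and lower in 4 (Syn3, Sv2b, Sv2c and Synpr), where 20.3% and 25.6% of all genes were. SST was higher than VIP in 6 (Syn1, Sv2a, Sv2b, Sv2c, Syp and Rab3b) and lower in 1 (Synpr), where 14.6% and 16.7% of all genes were. Synpr encodes synaptoporin, a relative of synaptophysin known from hippocampal mossy fibres and from subsets of interneurons. It ranged from 13.1 to 22.9 CPM (median 18.5) in PV, 373 to 1443 (953) in SST, 1669 to 4280.4 (3032) in VIP and 176 to 464 (312) in EXC. VIP lay above all others and PV below all others. The low ends of SST, VIP and EXC were replicates 3, 2 and 4, with the next libraries at 771 CPM in SST, 2518 in VIP and 265 in EXC. The fold change was -4.16 ± 0.31 (adjusted p = 2.11e-11) for PV against EXC, -1.71 ± 0.26 (adjusted p = 1.68e-05) for SST against VIP and -7.41 ± 0.35 (adjusted p = 6.47e-15) for PV against VIP. The dentate granule markers named above were present in EXC, and their part in the Synpr level of EXC was not tested. Syp, synaptophysin itself, ranged from 1414 to 2119.5 CPM (median 1599) in PV, 1421 to 2072 (1810.0) in SST, 681 to 1344 (986) in VIP and 379 to 1811 (1277) in EXC. Without replicate 3 EXC began at 1068 CPM. PV against EXC gave 0.47 ± 0.24 without passing the test, and SST against VIP gave 0.85 ± 0.24 (adjusted p = 0.00943). The Syp exons overlap those of an antisense transcript over 16.8% of their bases.

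Synpr held 0.544 to 1.13% of the RPKM of the synaptophysin and synaptoporin pair in PV, 13.8 to 36.98% in SST, 53.9 to 82.4% in VIP and 10.5 to 50.8% in EXC. The low end of SST was replicate 3 alone, with the next SST library at 29.4%, and the high end of EXC was replicate 3, with the next at 21.5%. The 3 SV2 genes encode vesicle glycoproteins, of which SV2A is the binding site of the antiseizure drug levetiracetam. Sv2a ranged from 643 to 1062 CPM (median 744) in PV, 399.9 to 779 (535) in SST, 264 to 461 (333) in VIP and 104 to 293 (269) in EXC. PV lay above VIP and EXC without overlap, and SST overlapped PV. EXC began at 215 CPM without replicate 3. PV against EXC gave 1.70 ± 0.21 (adjusted p = 2.37e-07) and SST against VIP 0.75 ± 0.21 (adjusted p = 0.00781). Sv2b ranged from 16.2 to 52.6 CPM (median 39.5) in PV, 109.6 to 230.3 (139) in SST, 1.68 to 22.3 (7.44) in VIP and 146 to 1174 (657) in EXC. The low end of EXC was replicate 3, and the other 5 EXC libraries began at 544 CPM, above all other libraries. The fold change was -4.14 ± 0.51 (adjusted p = 2.35e-07) for PV against EXC and, for SST against VIP, 4.07 ± 0.51 (adjusted p = 7.13e-07). Sv2c ranged from 1.97 to 5.87 CPM (median 3.25) in PV, 40.3 to 94.1 (61.4) in SST, 2.74 to 7.04 (4.07) in VIP and 63.7 to 105 (93.3) in EXC. SST and EXC lay above PV and VIP without overlap. PV against EXC gave -4.60 ± 0.30 (adjusted p = 1.65e-12) and SST against VIP 3.73 ± 0.27 (adjusted p = 2.62e-11), while SST against EXC gave -0.48 ± 0.22 and did not pass the test.

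On the RPKM scale the SV2 family was almost all Sv2a in PV (94.9 to 99.0%) and VIP (95.9 to 98.9%). In SST it was 74.3 to 86.3% Sv2a with 8.30 to 15.6% Sv2b and 4.36 to 12.97% Sv2c. In EXC it was 27.3 to 42.2% Sv2a with 34.0 to 64.0% Sv2b and 8.66 to 23.7% Sv2c. The ends 42.2, 34.0 and 23.7% were replicate 3, and without it Sv2b began at 48.3% and Sv2c ended at 12.8%. The Sv2a shares of PV and VIP overlapped, those of SST lay below both, and those of EXC were lowest.

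**Figure D3:**
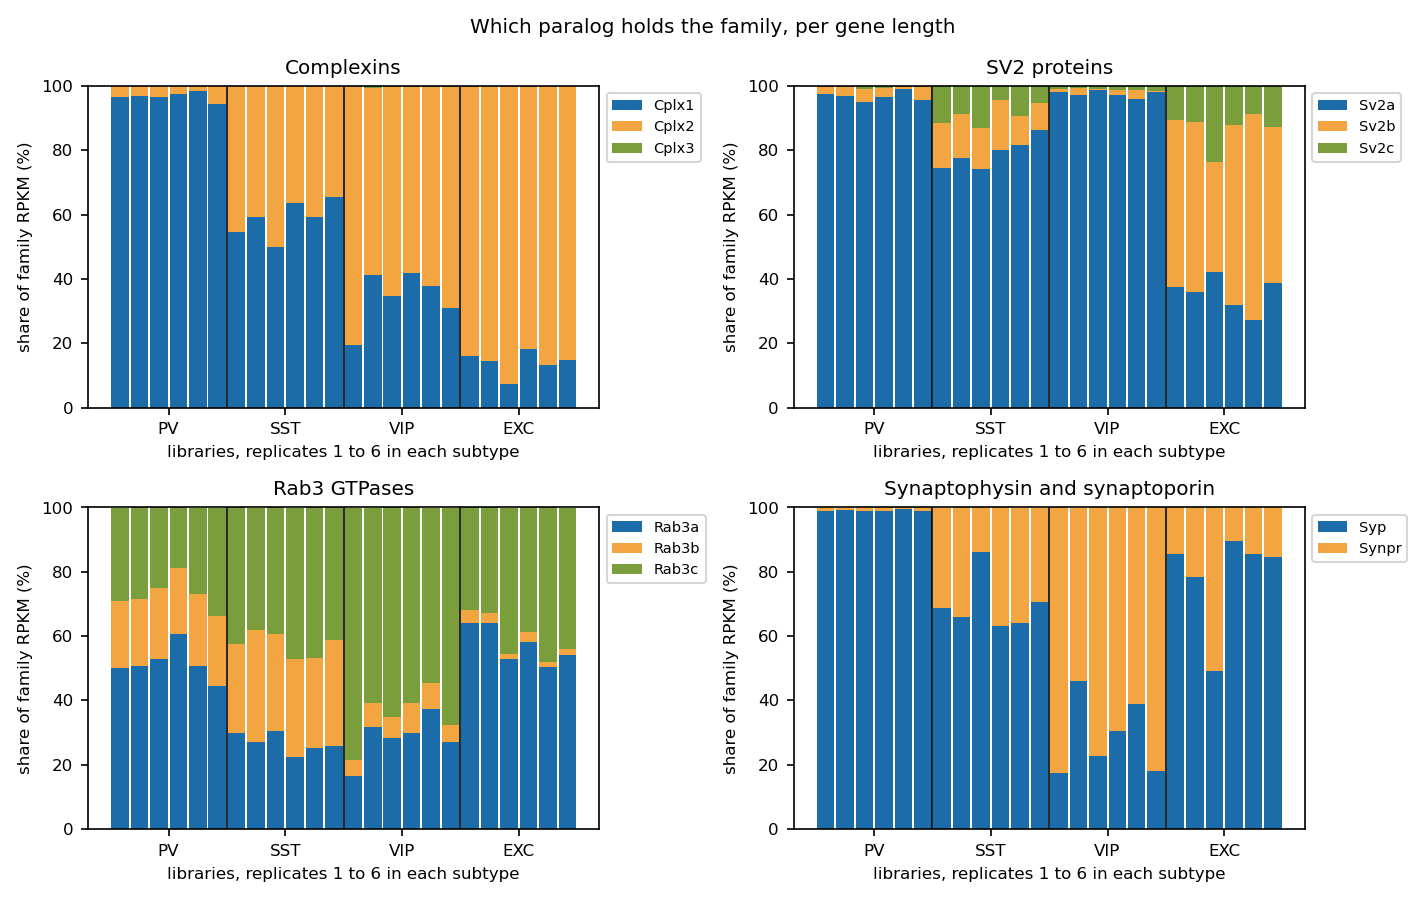
Share of each paralog in the summed RPKM of the listed members of its family, in percent, 1 stacked bar per library, for complexins, SV2 proteins, Rab3 GTPases and the synaptophysin pair in PV, SST, VIP and EXC. Cplx1 fills 94.4 to 98.3% of the bar in PV and 7.32 to 18.3% in EXC, Sv2b is sizeable in EXC, Rab3b in PV and SST, and Synpr in VIP.

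The Rab3 GTPases mark vesicles for docking through RIM. Rab3b ranged from 282 to 401 CPM (median 358) in PV, 435 to 629 (505) in SST, 41.6 to 121 (68.7) in VIP and 5.08 to 24.9 (15.0) in EXC. SST lay above all others, EXC below all others and VIP below PV. The fold change was 4.48 ± 0.30 (adjusted p = 3.91e-12) for PV against EXC, 2.93 ± 0.28 (adjusted p = 8.50e-09) for SST against VIP and 5.09 ± 0.31 (adjusted p = 1.08e-12) for SST against EXC. Rab3a, the most studied of them, ranged from 326 to 633 CPM (median 448) in PV, 216 to 256 (240.2) in SST, 73.8 to 218 (158) in VIP and 84.2 to 235 (192) in EXC. PV lay above all other libraries, with 1.38 ± 0.23 (adjusted p = 2.19e-05) for PV against EXC. Between SST and VIP, Rab3a was not called over all libraries (0.60 ± 0.23) but was called within POOL7098 (1.28 ± 0.25). The VIP libraries of that pool, replicates 1 and 3, had 73.8 and 143 CPM of Rab3a, where replicates 2, 4 and 5 had 172 to 218. Rab3c ranged from 1034 to 1307 CPM (median 1253) in PV, 1607 to 2395 (1983) in SST, 1679 to 2217 (1783) in VIP and 383 to 985 (546) in EXC. SST and VIP lay above PV and EXC, and PV above EXC, with 0.92 ± 0.17 (adjusted p = 1.03e-04) for PV against EXC and 1.65 ± 0.18 (adjusted p = 2.82e-08) for SST against EXC. The Rab3b share of the 3 genes' RPKM was 20.3 to 22.3% in PV, 27.7 to 35.02% in SST, 4.90 to 9.29% in VIP and 1.68 to 3.88% in EXC.

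Synapsins tie vesicles of the reserve pool to each other and to actin. Syn1 ranged from 542 to 997 CPM (median 699) in PV, 449.5 to 618 (521) in SST, 202 to 467 (288) in VIP and 209 to 829.32 (732) in EXC. EXC replicate 3 was its low end, and the other 5 EXC libraries began at 605 CPM. SST against VIP gave 0.87 ± 0.24 (adjusted p = 0.00784), and PV against EXC gave 0.13 ± 0.24 without passing the test. Syn2 ranged from 202 to 273 CPM (median 256) in PV, 284 to 345 (304) in SST, 239 to 374 (305) in VIP and 188 to 434 (303) in EXC, with overlap between most subtypes and no call in any of the 6 pairs. Without EXC replicate 3, PV against EXC in Syn2 gave -0.37 and passed the test (adjusted p = 0.0365), as it did within POOL6188 (-0.38 ± 0.13), which lacks that library. Syn3 ranged from 22.4 to 57.3 CPM (median 44.3) in PV, 72.0 to 120.0 (85.5) in SST, 86.5 to 129 (94.0) in VIP and 111 to 174 (132) in EXC. PV lay below all others, with -1.68 ± 0.18 (adjusted p = 1.57e-08) for PV against EXC. Its exons share 14.1% of their bases with Timp3 on the other strand, whose reads cannot be told apart from its own without strand.

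**Figure D4:**
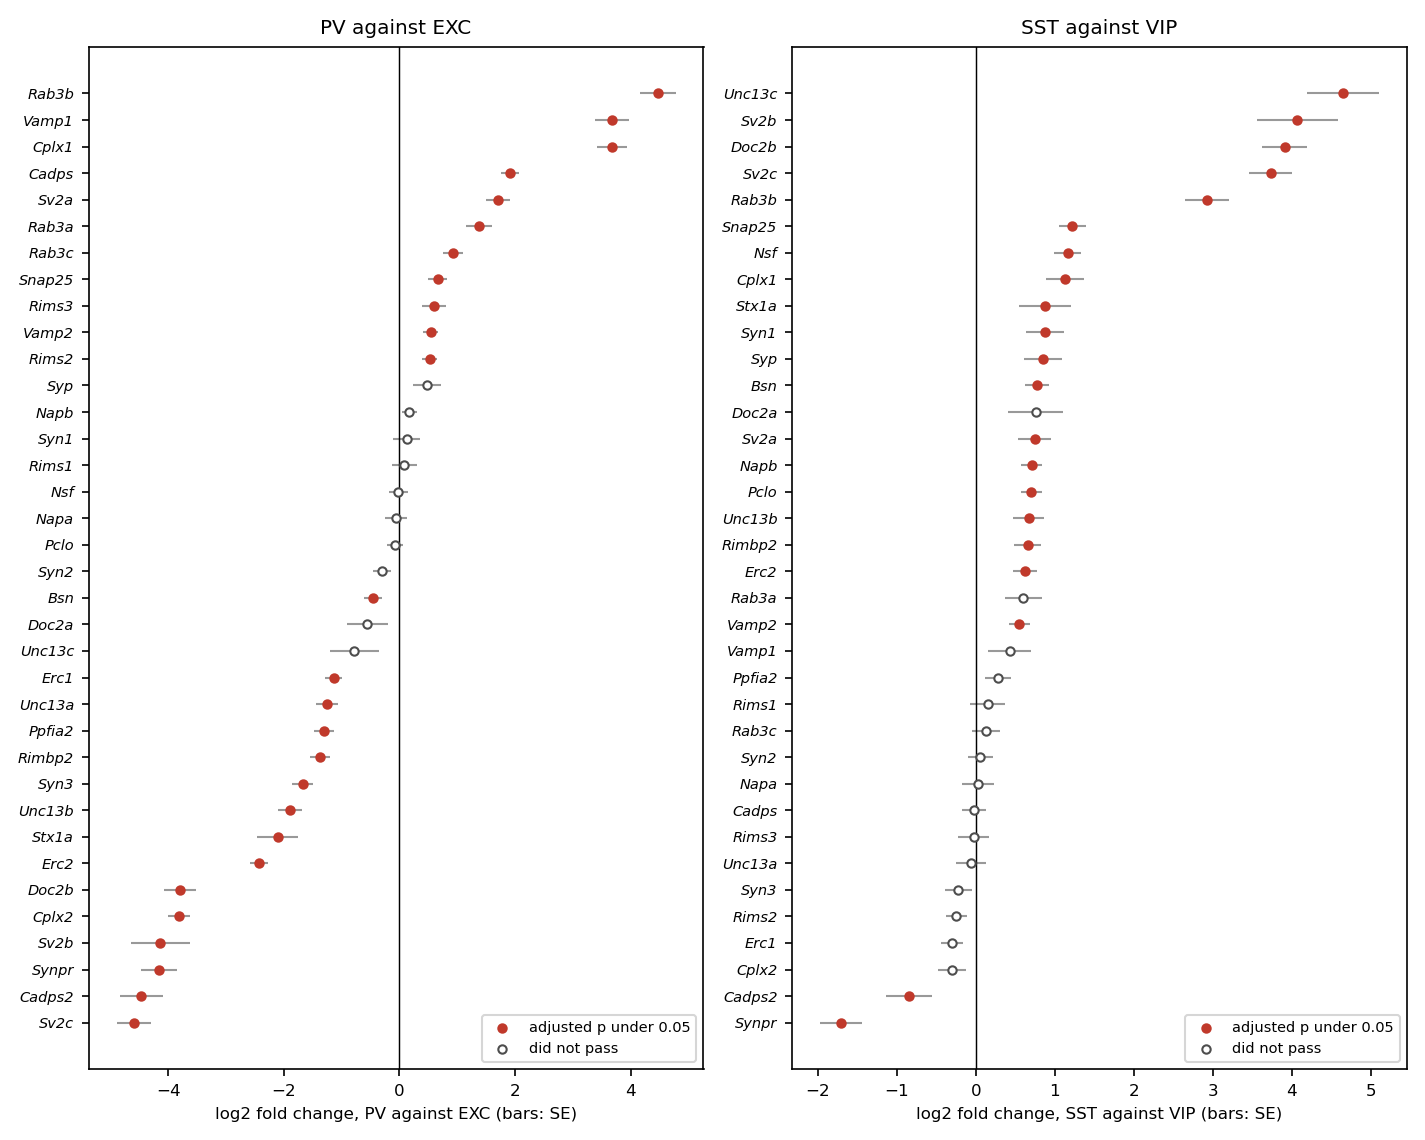
Log2 fold change of each member, with its SE as a bar, for PV against EXC (left) and SST against VIP (right), sorted by size; filled points have an adjusted p under 0.05, and Cplx3 is left out for its few reads. Rab3b, Vamp1 and Cplx1 lead on the PV side of the left panel and Sv2c, Cadps2 and Synpr on the EXC side, and in the right panel Unc13c, Sv2b, Doc2b and Sv2c lead on the SST side and Synpr is the extreme on the VIP side.

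Further ends of the ranges above rested on 1 library. In PV, the next library was at 81.5 CPM for Cplx2, 27.6 for Sv2b and 2.99 for Sv2c, where replicate 5 was lowest. Replicate 4 was the lowest PV library for Unc13a, Rimbp2 and Erc1, with the next at 124, 49.9 and 90.6 CPM, and the highest for Doc2a and Doc2b, with the next at 6.44 and 8.97 CPM. The lowest PV library was replicate 2 for Doc2a and replicate 1 for Syn3, with the next at 2.94 and 36.0 CPM, and replicate 6 was highest for Cadps2, with the next at 5.55 CPM. VIP replicate 5 was highest for Unc13c, Doc2b and Sv2b, with the next at 4.40, 1.73 and 13.3 CPM, VIP replicate 6 was lowest for Unc13c, with the next at 1.17 CPM, and VIP replicate 1 was lowest for Rab3a, with the next at 139 CPM. In EXC, replicate 5 was highest for Sv2b, with the next at 769 CPM.

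Within pools the 2 comparisons kept most of their calls. These fits reuse libraries of the main fit, so the recurrence is no independent check. Of the PV and EXC libraries, POOL6188 lacks only EXC replicate 3. In POOL6188, with 6 PV and 5 EXC libraries, 36 members could be tested, and 25 of the 26 calls were made again in the same direction, with 10 members higher in PV and 16 lower; of all genes, 5685 of 12447 were called in that fit. Cplx1 gave 3.55 ± 0.14, Vamp1 3.69 ± 0.36, Rab3b 4.33 ± 0.25, Cplx2 -3.87 ± 0.21, Synpr -4.01 ± 0.21 and Sv2c -4.68 ± 0.23 there. In POOL7098, with 5 SST libraries and 2 VIP libraries, 21 of the 22 calls were made again in the same direction, with 22 members higher in SST and 2 lower; of all genes, 6868 of 16449 were called in that fit, a larger share than over all libraries. Unc13c gave 5.68 ± 0.33, Sv2b 6.02 ± 0.41, Doc2b 4.28 ± 0.34, Rab3b 3.49 ± 0.26 and Synpr -1.90 ± 0.34 there. In some members the VIP libraries fell into 2 sets, replicates 1, 3 and 6 against 2, 4 and 5, which are not the pools. Syp was 681 to 770 CPM in the first set and 1203 to 1344 in the second, and Rab3a 73.8 to 143 and 172 to 218. Others, such as Synpr, overlapped between the sets. POOL7098 holds VIP replicates of the first set only. The part of this in its fold changes and calls was not tested.

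**Figure D5:**
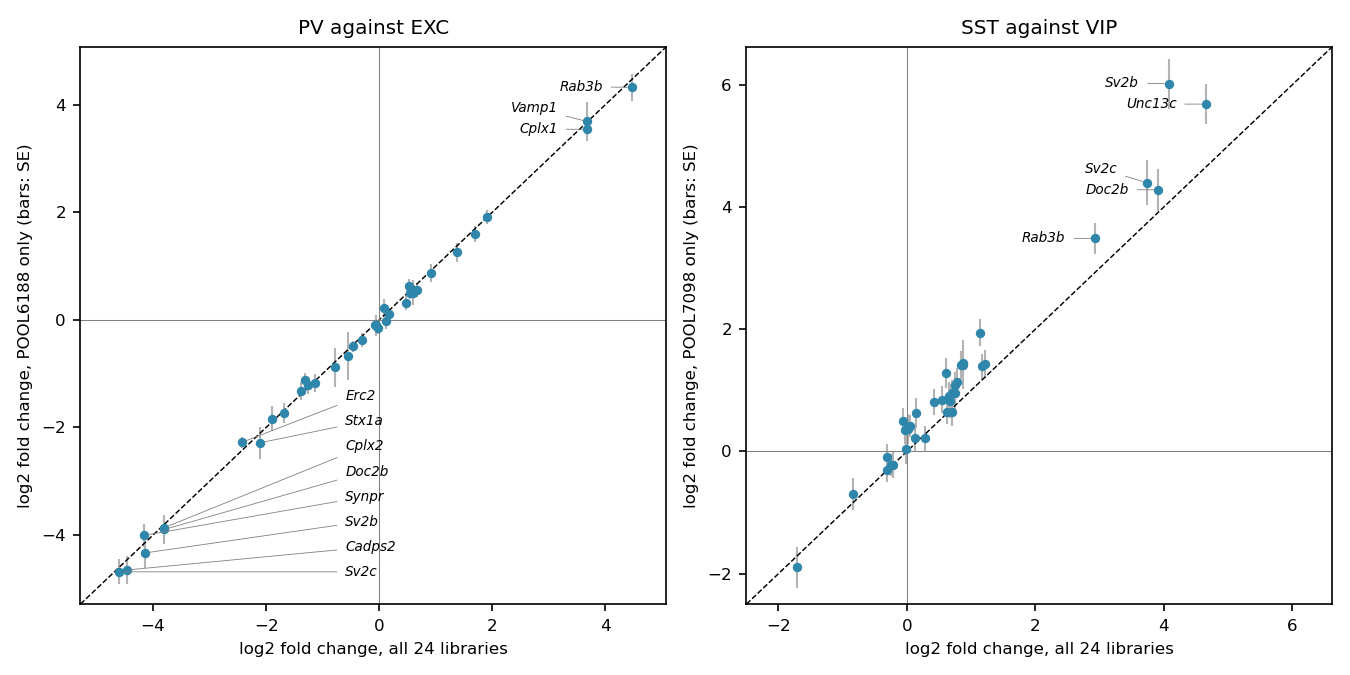
Log2 fold change of each member within 1 pool (vertical, bars are SE) against that from all 24 libraries (horizontal), for PV against EXC in POOL6188 (left) and SST against VIP in POOL7098 (right). The dashed line marks equal values and Cplx3 is left out. Points follow the line in the left panel, where 25 of 26 calls recurred, and Sv2b, Unc13c, Sv2c, Doc2b and Rab3b lie above it in the right panel. Each pool fit reuses libraries that also enter the horizontal axis.

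The remaining pairs gave calls in much the same number, but PV shares no pool with SST or VIP and SST none with EXC, so that pool and subtype cannot be told apart in those. SST against EXC called 25 members (38.4% of all genes), 11 higher (17.1%) and 14 lower (21.3%); with pool as a covariate it called 21, 17 higher and 4 lower, where 32.7% of all genes were called. VIP against EXC called 28 (39.1%), 7 higher (18.4%) and 21 lower (20.7%); with pool as a covariate it called 19, 10 higher and 9 lower (24.9% of all genes). Within POOL7099, where 4 VIP libraries meet EXC replicate 3 alone, that comparison called 11 members, 6 higher and 5 lower, and 1150 of 16306 genes in all. Of the 28 calls, 9 were made again and 21 kept their sign. PV against SST called 21 (26.3%), 4 higher (11.4%) and 17 lower (14.9%), and the 4 were Vamp1, Cplx1, Cadps and Rab3a. With pool as a covariate it called 18, 1 higher and 17 lower (21.9% of all genes). PV against VIP called 29 (48.6%), 20 higher (21.9%) and 9 lower (26.7%). With pool as a covariate, PV against VIP called 13 members, of which 3 were higher and 10 lower, and its share of all genes was 15.7%.

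Set against the mean of the other 3 subtypes, EXC had 16 members higher (24.5% of all genes) and 10 lower (18.1%), 26 called in all (42.5%). Without EXC replicate 3 these were 17 higher and 10 lower, and with pool as a covariate they were 12 higher and 15 lower (39.2% of all genes called). PV against the mean of SST and VIP had 13 higher (19.3%) and 11 lower (21.6%), 24 in all (40.9%), and 2 higher with 12 lower when pool was a covariate (18.3% of all genes called). SST against the mean of PV and VIP had 17 higher (11.2%) and 2 lower (7.15%), 19 in all (18.3%), and 22 higher with 1 lower when pool was a covariate (27.0% of all genes called). VIP against the mean of PV and SST had 8 higher (25.8%) and 20 lower (20.5%), 28 in all (46.3%), and 8 higher with 14 lower when pool was a covariate (17.6% of all genes called). The median fold change over the members was 0.39 in SST and -0.48 in VIP, where over all genes it was 0.00 in SST and 0.04 in VIP.

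Other release genes were taken from a list of 32, of which 30 could be tested. PV was higher than EXC in 10 of them and lower in 9 (20.3% and 25.6% of all genes), and SST was higher than VIP in 11 and lower in 4 (14.6% and 16.7% of all genes). The median fold change over the list was -0.19 for PV against EXC, where it was -0.12 over all genes, and 0.21 for SST against VIP, where it was -0.0033 over all genes. Sncb, beta-synuclein, ranged from 126 to 210.4 CPM (median 166) in PV, 39.4 to 61.1 (51.3) in SST, 16.1 to 35.6 (29.3) in VIP and 30.7 to 67.8 (53.6) in EXC, with PV above all others, with 2.16 ± 0.15 (adjusted p = 1.71e-11) for PV against the mean of SST and VIP. Rims4, the shortest RIM, also had PV above all others and ranged from 60.0 to 81.9 CPM (median 66.4) in PV, 20.49 to 33.9 (27.7) in SST, 5.83 to 11.96 (6.82) in VIP and 1.69 to 22.1 (14.4) in EXC. Prrt2, a SNARE-binding protein mutated in paroxysmal dyskinesia, ranged from 139.8 to 366 CPM (median 317) in EXC, 42.6 to 70.6 (56.3) in PV, 119 to 218 (167) in SST and 44.7 to 95.1 (65.9) in VIP, with 1.75 ± 0.15 (adjusted p = 4.31e-10) for EXC against the mean of the others. Rab27b, a GTPase of secretory vesicles, ranged from 135 to 459 CPM (median 342) in SST, 65.8 to 109.9 (95.6) in PV, 50.5 to 185 (139) in VIP and 25.7 to 98.3 (38.1) in EXC, with SST above PV and EXC, with 1.53 ± 0.25 (adjusted p = 4.89e-05) for SST against the mean of PV and VIP.

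From a list of 27 genes of vesicle endocytosis, all tested, PV was higher than EXC in 9 and lower in 7 (20.3% and 25.6% of all genes), and SST was higher than VIP in 10 and lower in 1 (14.6% and 16.7% of all genes). The median fold change over this list was 0.19 for PV against EXC, against -0.12 over all genes, and 0.27 for SST against VIP, against -0.0033 over all genes. Dnm1, the dynamin that pinches off synaptic vesicles, ranged from 732 to 1072 CPM (median 902) in PV, 431 to 608 (499) in SST, 174 to 378 (257) in VIP and 311 to 651 (578) in EXC. PV lay above all others and VIP was lowest by median, with 1.24 ± 0.15 (adjusted p = 2.85e-07) for PV against the mean of SST and VIP. Dnm3, a further dynamin of neurons, ranged from 209.6 to 278 CPM (median 259) in EXC, 523 to 692 (590.3) in PV, 861 to 1381 (1128) in SST and 790.2 to 1079.6 (935) in VIP. EXC lay below all others, with -1.77 ± 0.12 (adjusted p = 1.23e-12) for EXC against the mean of the others. Sh3gl3, endophilin-A3, ranged from 34.3 to 46.9 CPM (median 40.8) in VIP, 1.41 to 5.87 (3.41) in PV, 17.0 to 33.5 (21.4) in SST and 13.1 to 17.7 (15.9) in EXC. VIP lay above all others and PV below all others, with 2.16 ± 0.21 (adjusted p = 3.78e-09) for VIP against the mean of PV and SST. Ston2, stonin-2, an adaptor that sorts vesicle proteins, ranged from 34.5 to 98.8 CPM (median 68.9) in EXC, 4.59 to 29.0 (13.4) in PV, 3.48 to 12.03 (9.52) in SST and 6.02 to 10.6 (6.39) in VIP, with EXC above all others, with 2.90 ± 0.24 (adjusted p = 9.67e-11) for EXC against the mean of the others.

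Sex made no difference that passed the test. Female against male libraries, with subtype in the model, called 0 of the 37 members by edgeR, where 1 had an unadjusted p under 0.05. By edgeR 0.0403% of all genes were called, 0.0134% higher and 0.0269% lower. DESeq2 called 0 members, against 7 genes in all. The subtype-by-sex terms called 0 members by edgeR, with 1 at an unadjusted p under 0.05, against 0.0% of all genes. For these terms DESeq2 called 0 members, against 1 gene in all. A sex difference that misses the test is not thereby shown to be absent.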

How the data were processed

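RNA was measured in 24 libraries of sorted neurons, 6 in each of PV, SST, VIP and EXC. For each library the authors deposited counts of reads uniquely aligned to each gene model, per the file headers. They also deposited RPKM adjusted by a size factor per library, whose method is not stated. The counts were tested, and the RPKM served only to compare genes per length. Reads were aligned with GSNAP to GRCm38, per the submitters' processing notes. No version of the aligner, counter, annotation release or strand setting is given in the sources used here.

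Counts were fitted over all genes with edgeR 4.0.16 (limma 3.58.1, R 4.3.3): filterByExpr, TMM scaling, subtype and sex as terms, the quasi-likelihood test and Benjamini-Hochberg adjustment over 14890 genes, with a threshold of 0.05. CPM values are TMM-normalised, and tables were made with Python 3.11.15. Total counts were 1548907 to 15978459 (median 6012251.5). Within subtypes, 60 library pairs were compared, and none agreed within sampling noise (lowest chi-square per degree of freedom 5.10). In VIP this value was 9.70 to 25.0 among replicates 1, 3 and 6 and 12.0 to 19.7 among replicates 2, 4 and 5. Pairs across these 2 sets had 36.9 to 84.0. The fit was tested on simulated data with 200 changed genes. Alternatives were DESeq2 1.42.0, other scaling, filters, covariates, within-pool fits and leaving out each library. All 37 members are named. Of 2 further lists, up to 3 called genes a direction with the largest change in each of 4 comparisons of a subtype with a mean could be named, where they reached 10 CPM, and a few of these are described; some listed genes are not reported here. The members and lists were chosen with earlier results of these data known.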

Additional observations from a re-analysis of the deposited data

Results flagged for a closer look

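In each subtype's 6 libraries, the highest or lowest value of a gene was marked where its gap to the nearest other library, divided by the group's range, passed Dixon's 95% critical value of 0.625. This held in 18 of 148 groups of a gene and a subtype, and chance marks about 1 group in 20. Cplx3 in VIP replicate 2 was above the others at 4.90 CPM, with the nearest at 2.14. Unc13a in PV replicate 4 was below the others at 81.0 CPM, with the nearest at 124. Unc13b in SST replicate 3 was above the others at 22.3 CPM, with the nearest at 16.2. Unc13c in VIP replicate 5 was above the others at 12.3 CPM, with the nearest at 4.40. Cadps2 in PV replicate 6 was above the others at 12.9 CPM, with the nearest at 5.55. Doc2a in PV replicate 4 was above the others at 14.8 CPM, with the nearest at 6.44. Doc2b in VIP replicate 5 was above the others at 3.68 CPM, with the nearest at 1.73. Rims1 in PV replicate 6 was above the others at 60.1 CPM, with the nearest at 44.6. Rims2 in EXC replicate 3 was above the others at 132 CPM, with the nearest at 94.6. Rimbp2 in PV replicate 4 was below the others at 27.4 CPM, with the nearest at 49.9. Pclo in SST replicate 4 was above the others at 2784 CPM, with the nearest at 1976. Erc1 in EXC replicate 6 was above the others at 273 CPM, with the nearest at 221. Erc2 in EXC replicate 3 was above the others at 810.1 CPM, with the nearest at 519.6. Syn1 in EXC replicate 3 was below the others at 209 CPM, with the nearest at 605. Syn2 in PV replicate 1 was below the others at 202 CPM, with the nearest at 248. Syn3 in SST replicate 3 was above the others at 120.0 CPM, with the nearest at 88.1. Syn3 in VIP replicate 1 was above the others at 129 CPM, with the nearest at 101. Rab3c in VIP replicate 4 was above the others at 2217 CPM, with the nearest at 1856. No test was made of why these libraries stood apart.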

How the results depend on the processing

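Across 36 alternative settings, 24 of which leave out 1 library, the 370 gene results over 10 comparisons kept their side of the threshold in 11542 cases. They gained a call in 192, lost it in 343 and turned direction in 51. A result counted as turned where its sign changed and at least 1 of the fits compared passed the threshold. Sign changes where neither fit passed are among the 11542. Of 248 calls, 145 were neither lost nor turned in any setting. PV against EXC and SST against VIP had no turned result in that sense. Uncalled members did change sign there, such as Syn1 within POOL6188 (-0.020, against 0.13) and Unc13a within POOL7098 (0.51, against -0.065). No paired analysis was possible because the labels number no replicates; the numbers used here follow the order of deposit and pair no libraries. Counts of called members moved by more than 1.5 times in PV against the mean of SST and VIP (14 with pool as a covariate, against 24), PV against VIP (13, against 29) and VIP against EXC (11 within POOL7099, against 28); the cause was not tested. Leaving out 1 library gave 25 to 27 for EXC against the mean, 22 to 26 for PV, 16 to 23 for SST and 27 to 28 for VIP against theirs, 25 to 28 for PV against EXC, 23 to 28 for SST against EXC and for VIP against EXC, 17 to 25 for PV against SST, 26 to 31 for PV against VIP, 19 to 23 for SST against VIP and 33 to 35 for any subtype difference, with 0 for sex and for the subtype-by-sex terms. With pool as a covariate, 44 log2 fold changes turned. In EXC against the mean of PV, SST and VIP these were Napa -0.015, Nsf -0.099, Syn1 -0.88, Syn2 -0.49. In PV against the mean of SST and VIP these were Napa -0.19, Rims2 0.13, Bsn -0.041, Nsf -0.38, Rab3a -0.46, Snap25 -0.18, Syn1 -1.38, Syp -1.95, Erc2 0.26, Sv2a -0.71, Sv2b -3.84, Rab3b -1.26. In SST against the mean of PV and VIP these were Cplx1 1.07, Rab3a 1.08. In SST against EXC these were Napa 0.22, Bsn 0.066, Nsf 0.87, Syn1 2.02, Cadps2 0.37, Sv2b 2.47. In VIP against EXC these were Napb 0.20, Rab3a 1.13, Snap25 0.053, Stx1a 0.34, Syn1 0.67, Syn2 0.78, Syp 1.60, Cadps2 1.15. In PV against SST these were Rims2 0.29, Cplx1 -0.35, Nsf -1.03, Rab3a -1.03, Syn1 -2.06. In PV against VIP these were Napa -0.042, Napb -0.10, Syn1 -0.71, Syp -1.29, Vamp2 -0.065, Sv2a -0.21, Sv2b -0.88. Within POOL7099, 7 turned. In VIP against EXC these were Napa 0.025, Napb 0.25, Snap25 0.14, Unc13c 0.10, Stx1a 0.77, Syn1 0.69, Cadps2 1.29. The cause was not tested. The pool fit joins POOL6188 to the other pools through EXC replicate 3 alone. Depth limits Cplx3, which had few reads in any subtype.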
